A study of Mus musculus with 6 samples.

Results

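The genes described here are 10 mouse genes linked to the follicular helper T cell programme and the TOX family, namely Bcl6, Cxcr5, Tox, Tox2, Izumo1r, Sh2d1a, Il21, Ascl2, Cd200 and Slamf6. They were chosen by symbol out of 54446 Ensembl genes in the count tables, and all 10 were found. Total RNA was sequenced from live CD45+ CD4+ Foxp3-GFP+ regulatory T cells (Treg cells) sorted out of subcutaneous tumours of B16F10, a mouse melanoma cell line. There were 3 libraries labelled Ythdf2 cKO (genotype Foxp3Cre Ythdf2fl/fl, with both Ythdf2 alleles floxed) and 3 control libraries, labelled WT (genotype Foxp3Cre Ythdf2fl/+). The controls thus carried the Foxp3-driven Cre as well, together with 1 floxed allele, so both groups could recombine Ythdf2 in cells that express Foxp3. Cage 1 held replicate 1 of the group labelled cKO and control replicates 1 and 2, and cage 2 held replicates 2 and 3 of the group labelled cKO and control replicate 3. The labels do not state whether the libraries of a group are different mice, and p-values therefore reflect the spread among libraries, which could in part be technical.

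Follicular helper T cells are CD4 T cells that enter B cell follicles and help B cells to mature. Bcl6 is the transcription factor that defines them, and the chemokine receptor Cxcr5 brings them to the follicle. Some Treg cells switch on the same genes and become follicular regulatory T cells. TOX proteins are DNA-binding factors with an HMG box, and Tox is best known for its role in T cells under long antigen exposure, such as those in tumours. Ythdf2, the floxed gene, encodes a protein that binds mRNAs with N6-methyladenosine and promotes their decay.

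The libraries held from 5602053 to 13602069 counts in genes. All 7 Treg and T cell markers (Foxp3, Cd4, Cd3e, Ptprc, Ikzf2, Il2ra and Ctla4) were counted in every library. Foxp3 was at 608, 358 and 359 CPM (counts per 1000000 counts of library size, which was scaled by TMM, a factor that evens out differences in composition) in the libraries labelled cKO, against 449, 496 and 325 CPM in the controls, and Cd4 at 706, 548 and 445 CPM, against 559, 718 and 412 CPM in the controls. Both overlapped between the groups. Ythdf2 itself was at 90.1, 104 and 104 CPM in the libraries labelled cKO, against 124, 102 and 93.1 CPM in the controls. The groups overlapped, and the log2 fold change of -0.10 (95% interval -0.47 to 0.28) did not pass the test (edgeR quasi-likelihood, adjusted p = 1 by Benjamini-Hochberg). The counts cover the whole transcript and the labels do not name the exons that Cre removes, so directions below are those of the libraries as labelled. Tumour transcripts differed by library. The summed level of 10 melanoma markers was 58.0, 2557 and 3492 CPM of total gene counts in the libraries labelled cKO, against 406, 538 and 3624 CPM in the controls, so the 3 libraries of cage 2 were highest. In bulk libraries such as these, fewer cells of a type and less RNA per cell cannot be told apart.

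Of the 10 genes, 8 had enough counts to be tested and 0 of the 8 passed the threshold of 0.05 on the adjusted p. The share called over all 13172 genes tested was 0% with edgeR, and DESeq2 and limma-voom also called 0 genes. An unadjusted edgeR p under 0.05 was found for 213 genes, 1 of them a member (Sh2d1a). All 8 tested genes had a log2 fold change below 0 in the libraries labelled cKO, where 50.7% of all genes tested did. Their median was -0.42, beside -0.0049 over all genes tested. The gap was widest for Sh2d1a, at -1.23, and narrowest for Tox, at -0.027. The median depended on control replicate 1. That library was the highest of the 6 for 7 of the 8 genes, where it was the highest for 15.2% of all genes tested, and without it the median was -0.093.

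**Figure D1:**
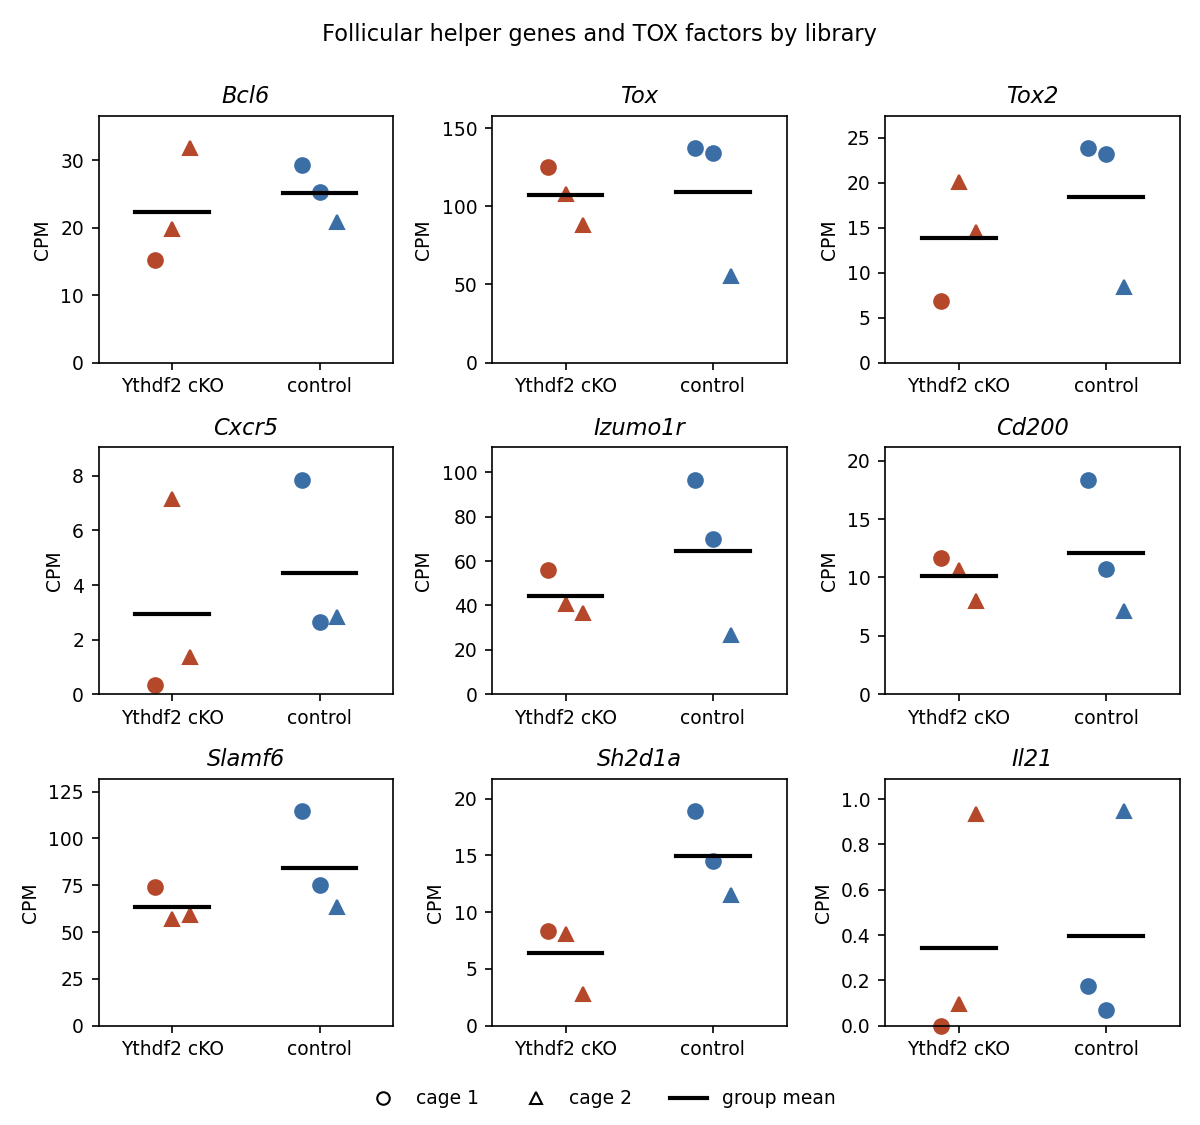
CPM of 9 genes (vertical axes) in the libraries labelled Ythdf2 cKO (left, red) and in the controls (right, blue); each point is 1 library, circles are cage 1, triangles are cage 2 and bars are the means of 3 libraries. With TMM scaling, the groups overlap in every panel but that of Sh2d1a, where all 3 libraries labelled cKO lie below all 3 controls.

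Levels were compared between genes per kilobase of exon, on the mean of the 6 libraries. Izumo1r was highest at 23.4 CPM per kb, followed by Tox at 14.2, Slamf6 at 6.82, Tox2 at 4.75, Bcl6 at 3.54, Cd200 at 3.34, Sh2d1a at 1.94 and Cxcr5 at 1.11 CPM per kb. Il21 stood at 0.0704 CPM per kb and Ascl2 at 0. Izumo1r lay above Tox in 6 of 6 libraries and Tox above Slamf6 in 6 of 6. Tox2 lay above Bcl6 in 3 of 6 and Bcl6 above Cd200 in 3 of 6, so these neighbours did not differ beyond their spread. The exon length used is the union of all annotated exons, which takes in retained introns. With the longest coding transcript in its place, Sh2d1a moved up from rank 7 to rank 4, at 8.75 CPM per kb, because its union of exons is 5505 bases and its longest coding transcript 1223 bases.

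**Figure D2:**
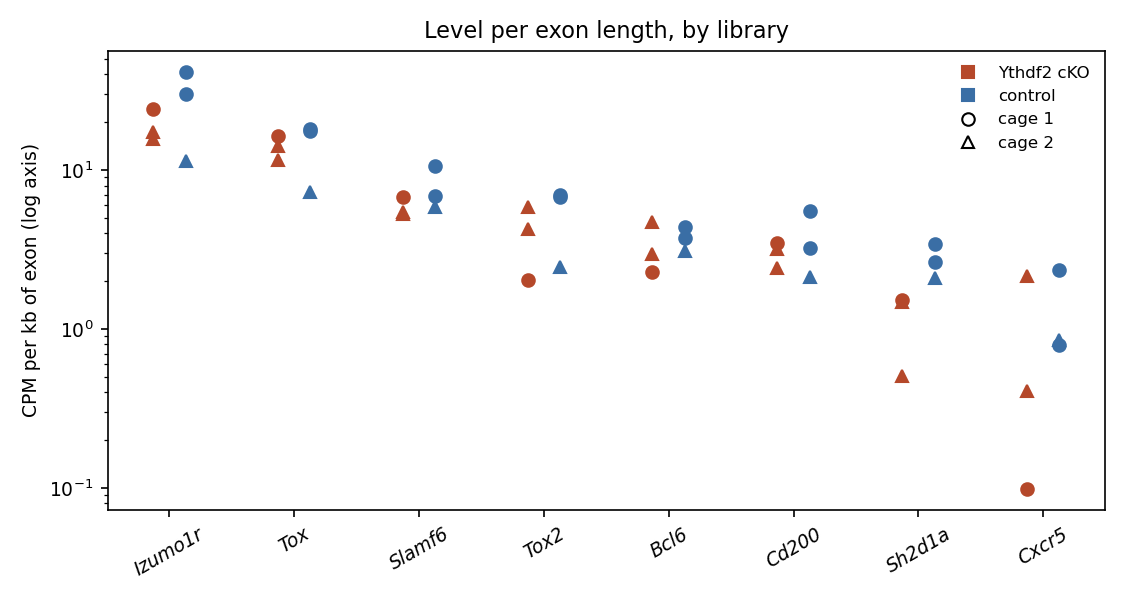
CPM per kilobase of exon (log axis) of the 8 tested genes in each library labelled Ythdf2 cKO (left of each pair, red) and each control (right, blue), ordered by the mean of the 6 libraries; circles are cage 1 and triangles are cage 2. Izumo1r and Tox lead in every library, and Cxcr5 spreads most widely between libraries.

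Bcl6 (ENSMUSG00000022508, chromosome 16, 23965052 to 23988852, mm10) encodes a repressor of transcription that sets the follicular fate. It was at 15.2, 19.8 and 31.8 CPM in the libraries labelled cKO, against 29.3, 25.2 and 20.8 CPM in the controls. The libraries labelled cKO held both the lowest and the highest value, and the groups overlapped. The log2 fold change was -0.17 with a 95% interval from -0.92 to 0.57 (edgeR adjusted p = 1). The highest value came from replicate 3 of the group labelled cKO, the library that also stood apart in endothelial transcripts: Kdr, a receptor of endothelial cells, was read 643 times there and from 0 to 7 times in the other 5 libraries. Whether this has a part in the Bcl6 value was not tested.

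Tox (ENSMUSG00000041272, chromosome 4, 6686353 to 6991557) was the most abundant transcription factor of the group. It was at 125, 108 and 88.1 CPM in the libraries labelled cKO, against 137, 134 and 55.7 CPM in the controls. The lowest value was that of control replicate 3, which also had the highest melanoma sum. The means were 107 ± 18.6 CPM in the libraries labelled cKO and 109 ± 46.1 CPM in the controls (SD, n = 3 each), and the log2 fold change was -0.027 with a 95% interval from -0.81 to 0.76 (edgeR adjusted p = 1). The estimate was 0.034 when only total counts were used for scaling, so no direction is given for Tox.

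Tox2 (ENSMUSG00000074607, chromosome 2, 163203125 to 163324170), a relative of Tox that supports the follicular helper fate, was at 6.88, 20.1 and 14.5 CPM in the libraries labelled cKO. It was at 23.8, 23.2 and 8.36 CPM in the controls. The groups overlapped, with the lowest value in replicate 1 of the group labelled cKO and the next in control replicate 3. The log2 fold change was -0.42 with a 95% interval from -1.63 to 0.80 (edgeR adjusted p = 1). Ascl2 (ENSMUSG00000009248, chromosome 7, 142966829 to 142969264), a basic helix-loop-helix factor that can switch on Cxcr5, had 0 counts in all 6 libraries. A count of 0 allows a level of up to 3 counts, which is from 0.203 to 0.490 CPM depending on the library, and this limit covers counting error only.

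The TOX relatives shared short runs of identical bases. The longest run of identical bases between coding transcripts of Tox and Tox2 was 20 bases, and between Tox and Tox3 it was 24 bases, both in coding sequence. The run shared by Tox and Tox2 is shown because it is the longest stretch of their coding transcripts where a read could match both exactly. It is at chr4:6722292-6722311 in Tox (minus strand, exon 5) and at chr2:163315849-163315868 in Tox2 (plus strand, exon 5), in GENCODE M21 transcripts on mm10.
Tox and Tox2: aagaagaagaagaagaagga
Izumo1r shared at most 16 bases with Folr2 and Slamf6 at most 15 bases with Slamf1, their relatives.

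Among the surface proteins, Cxcr5 (ENSMUSG00000047880, chromosome 9, 44511787 to 44561877), the receptor for the follicle chemokine Cxcl13, was read 2, 74 and 13 times in the libraries labelled cKO, against 89, 39 and 18 times in the controls. In scaled values this was 0.328, 7.14 and 1.35 CPM in the libraries labelled cKO, against 7.86, 2.64 and 2.84 CPM in the controls. Each group held a library above 7 CPM, and the highest library was 24.0-fold above the lowest. The log2 fold change was -0.58 with a 95% interval from -3.00 to 1.84 (edgeR adjusted p = 1), and it was 0.11 without control replicate 1 and -2.36 without replicate 2 of the group labelled cKO. Cxcr5 overlaps Bcl9l, a gene on the other strand with 485 to 1186 counts per library, and the strand setting of the counting is not given in the sources used here.

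B cells also carry Cxcr5 and Bcl6, and their markers were low in all 6 libraries. The summed level of 10 B cell markers was 25.3, 30.5 and 24.1 CPM of total gene counts in the libraries labelled cKO, against 8.37, 9.41 and 13.9 CPM in the controls. The groups did not overlap (exact two-sided permutation p = 0.1, the smallest that 3 against 3 allows; adjusted p = 0.40 over 8 marker lists). Of the 10 markers, from 0 to 3 were at 0 in a library, and Pax5, the factor that sets B cell identity, was read 9, 29 and 25 times in the libraries labelled cKO, against 0, 2 and 36 times in the controls. The groups overlapped for Pax5, with the highest count in control replicate 3. All 7 tested B cell markers, Pax5 among them, had a log2 fold change above 0, with a median of 1.07. Of all 13172 genes tested, 6491 were above 0. Marker lists of other cells also ran to one side. All 8 tested macrophage markers were below 0 (median -1.31), and all 3 tested dendritic and all 3 tested endothelial markers were above 0. For 1 of the 7 B cell markers every library labelled cKO lay above every control, as for 3.4% of all genes tested, and 0 were called. The part of B cell transcripts in the Cxcr5 and Bcl6 values was not tested further.

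Izumo1r (ENSMUSG00000031933, chromosome 9, 14885814 to 14903949) encodes folate receptor 4, known as Juno, which is the sperm receptor of the egg and is also abundant on Treg and follicular helper cells. It was at 56.0, 40.5 and 36.6 CPM in the libraries labelled cKO, against 96.7, 69.9 and 26.5 CPM in the controls. All 3 libraries labelled cKO lay between the controls, whose own values spanned 3.65-fold. The means were 44.4 ± 10.2 CPM in the libraries labelled cKO and 64.4 ± 35.4 CPM in the controls (SD, n = 3 each), and the log2 fold change was -0.54 with a 95% interval from -1.55 to 0.47 (edgeR adjusted p = 1). The estimate was -0.13 without control replicate 1, -0.88 without control replicate 3 and -0.033 with cage as a term. Its spread within groups was larger than that of 96.4% of genes of like level, and that of Tox was larger than 96.6%. Cd200 (ENSMUSG00000022661, chromosome 16, 45382135 to 45409053), a membrane protein that restrains myeloid cells through its receptor Cd200r1, was at 11.6, 10.6 and 7.99 CPM in the libraries labelled cKO, against 18.4, 10.8 and 7.10 CPM in the controls. Here too the libraries labelled cKO lay within the range of the controls, and the log2 fold change was -0.27 with a 95% interval from -1.24 to 0.71 (edgeR adjusted p = 1).

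The receptor Slamf6 and the adaptor Sh2d1a work together in T cells. Slamf6 binds another Slamf6 molecule on the partner cell, and Sh2d1a encodes SAP, which docks on the tails of SLAM family receptors, brings in the kinase Fyn and is needed for lasting contact between T and B cells. Sh2d1a (ENSMUSG00000005696, chromosome X, 42502453 to 42529330) was read 51, 84 and 27 times in the libraries labelled cKO, against 214, 215 and 73 times in the controls. In scaled values this was 8.35, 8.11 and 2.80 CPM in the libraries labelled cKO, against 18.9, 14.5 and 11.5 CPM in the controls. On this scale every library labelled cKO lay below every control, which was so for 4.22% of all genes tested. The means were 6.42 ± 3.14 CPM in the libraries labelled cKO and 14.99 ± 3.71 CPM in the controls (SD, n = 3 each), a log2 fold change of -1.23 (standard error 0.48, 95% interval -2.34 to -0.11). Its unadjusted edgeR p was 0.0351, and it did not pass the threshold over all genes (edgeR adjusted p = 1). It was the single one of the 8 genes with an unadjusted edgeR p under 0.05, which 1.62% of all genes tested had, 0.782% with a lower level in the libraries labelled cKO. That p was 0.119 without control replicate 1, 0.0716 without control replicate 2, 0.0560 without replicate 3 of the group labelled cKO and 0.0659 when scaled by total counts alone (edgeR, unadjusted).

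The Sh2d1a values were also set against the T cells in each library. Per 1000 counts of Cd3e, Cd4 and Foxp3 together, Sh2d1a had 4.88, 6.67 and 2.60 counts in the libraries labelled cKO, against 13.5, 9.01 and 12.01 counts in the controls. The groups did not overlap on this scale either, and the log2 fold change was -1.28 with library sizes taken from the same 3 genes. Without the TMM factors, on total gene counts, the groups did overlap for Sh2d1a. There, replicates 1 and 2 of the group labelled cKO lay above control replicate 3. Their reads were 51 of 5602053 and 84 of 9960861, against 73 of 8923124. The TMM factor of that control was 0.713. With TMM scaling and each library left out in turn, the log2 fold change ran from -1.46 to -0.87. The gene on the other strand, Tenm1, had from 0 to 8 counts in a library.

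Slamf6 (ENSMUSG00000015314, chromosome 1, 171917515 to 171953170) was at 73.9, 57.2 and 59.0 CPM in the libraries labelled cKO, against 115, 74.9 and 63.4 CPM in the controls. The groups overlapped by a single library, since replicate 1 of the group labelled cKO lay above control replicate 3, which came from the other cage. The estimate of -0.41 in log2 (standard error 0.25, 95% interval -0.99 to 0.16) did not pass the test (edgeR adjusted p = 1), and it was -0.13 without control replicate 1.

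Il21 (ENSMUSG00000027718, chromosome 3, 37222759 to 37232636) encodes interleukin-21, the cytokine by which follicular helper cells act on B cells. It was read 0, 1 and 9 times in the libraries labelled cKO, against 2, 1 and 6 times in the controls. Most of these reads came from replicate 3 of the group labelled cKO and from control replicate 3, both of cage 2. Over each group this was 10 and 9 reads, a depth-adjusted ratio of 1.38 for the libraries labelled cKO over the controls with a 95% exact counting interval from 0.503 to 3.83. A difference in Il21 was not detectable with these counts. The ratio was 0.219 without replicate 3 of the group labelled cKO and 3.33 without control replicate 3, the lowest and highest values with a library left out.

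**Figure D3:**
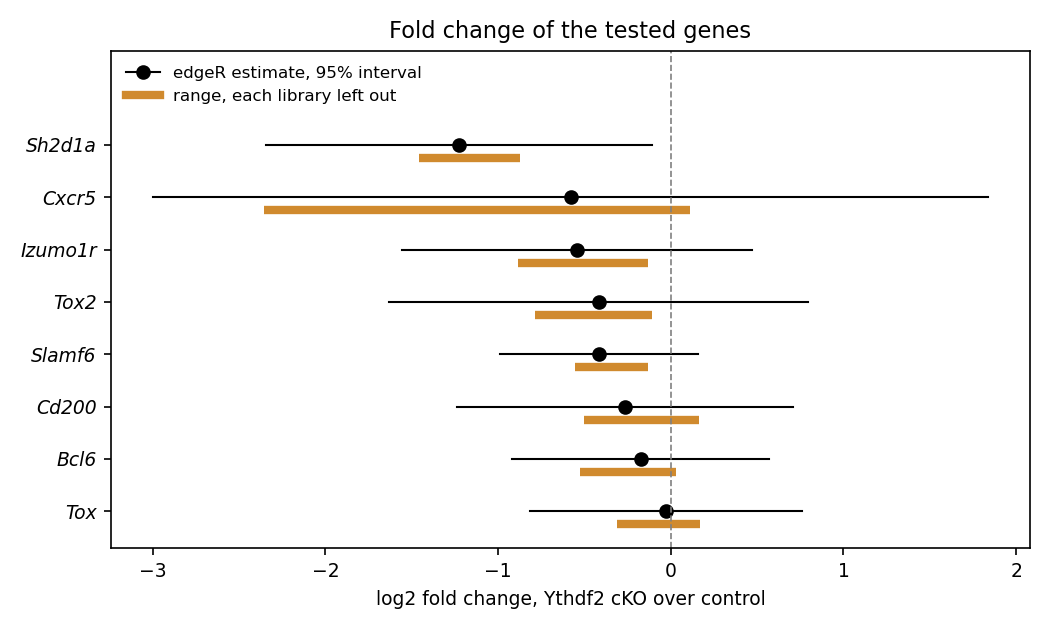
Log2 fold change of the 8 tested genes, libraries labelled Ythdf2 cKO over controls (horizontal axis); black points and lines are the edgeR estimate and its 95% interval from 3 libraries a group, and orange bars are the range with each library left out in turn. The interval of Sh2d1a, from -2.34 to -0.11, is the only one that lies wholly below 0, and the ranges of Cxcr5, Cd200, Bcl6 and Tox cross 0.

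The cages gave different pictures for most of the genes. Within cage 1, where 1 library labelled cKO faces 2 controls, all 8 tested genes had a lower mean in the library labelled cKO, with a median difference of -0.69 in log2 CPM. Over all genes tested this median was -0.081, and 7320 of 13172 were lower. Within cage 2, where 2 libraries labelled cKO face 1 control, 2 of the 8 were lower, with a median of 0.32 beside -0.011 over all genes. Of the 13172 genes tested, 6710 were lower there. Cage 2 holds the library with the lowest values of Tox, Izumo1r and Cd200, control replicate 3, where 42.6% of gene counts fell in mitochondrial ribosomal RNA, against 9.97% to 19.2% in the other 5 libraries. With library sizes taken from Cd3e, Cd4 and Foxp3 the median within cage 2 was 0.061 and within cage 1 it was -0.85.

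With TMM scaling, Sh2d1a and Slamf6 had the same order in both cages. Each library labelled cKO lay below each control of its own cage for these 2 genes, which was so for 18.5% of all genes tested. For Sh2d1a the difference was -0.97 in cage 1 and -1.23 in cage 2, and for Slamf6 it was -0.33 and -0.13. On total gene counts this order was lost in cage 2. For Slamf6 both libraries labelled cKO then lay above the control (593 reads of 9960861 and 568 of 9263893, against 402 of 8923124). For Sh2d1a they lay on both sides of the control (84 and 27 reads, against 73, of the same totals). Tox, Tox2 and Izumo1r lay below both controls in cage 1 and above the control in cage 2, an order found for 13.6% of all genes tested. With cage as a term in the fit, the log2 fold change of Sh2d1a was -1.04 (edgeR adjusted p = 0.49) and that of Slamf6 -0.24 (edgeR adjusted p = 0.65).

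**Figure D4:**
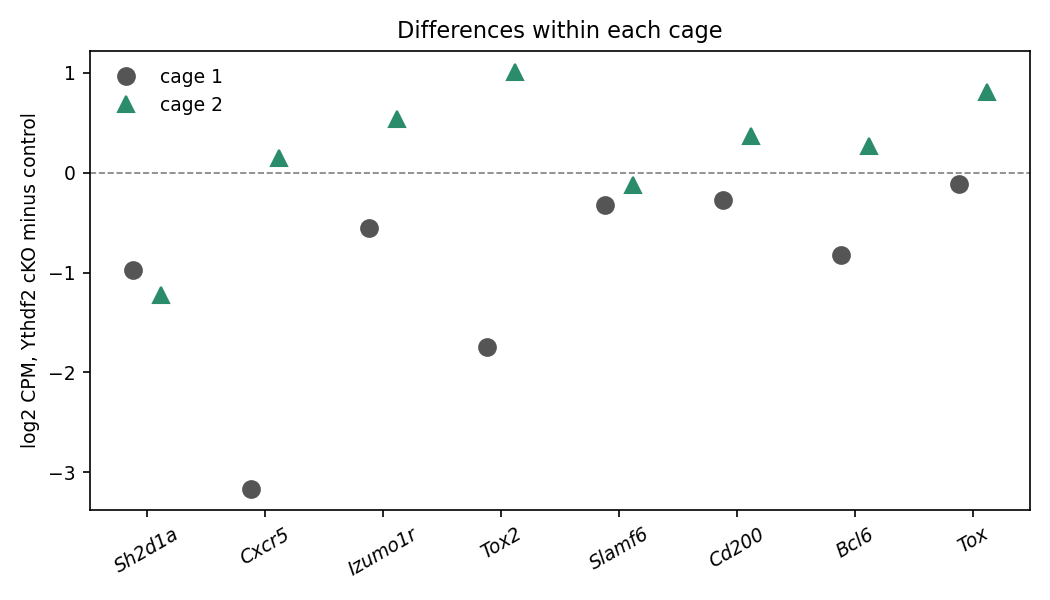
Difference in log2 CPM, libraries labelled Ythdf2 cKO minus controls (vertical axis), within cage 1 (grey circles, 1 against 2 libraries) and cage 2 (green triangles, 2 against 1) for the 8 tested genes. With TMM scaling, Sh2d1a and Slamf6 lie below 0 in both cages, while the other 6 lie below 0 in cage 1 and above 0 in cage 2.

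Further genes, chosen around the follicular programme and the TOX factors, came from 4 lists, of which 0 members were called (0% of all genes tested were). Of 20 genes that promote, mark or tune the programme 19 were tested, 7 above 0 and 12 below, with a median log2 fold change of -0.064. The direction turned without control replicate 1 (12 above and 7 below, median 0.044), with cage as a term (median 0.13) and on total counts (median 0.074). Cd40lg (chromosome X, 57212143 to 57224042), the ligand through which T cells help B cells, was the single gene of this list with an unadjusted edgeR p under 0.05. It was at 16.7, 20.3 and 7.89 CPM in the libraries labelled cKO, against 46.9, 37.1 and 22.4 CPM in the controls, so its groups did not overlap with TMM scaling. On total gene counts, without the TMM factors (0.713 in control replicate 3), the groups overlapped for Cd40lg, also within cage 2. Its estimate was -1.25 in log2 (standard error 0.42, edgeR unadjusted p = 0.0190, adjusted p = 1), with differences of -1.31 within cage 1 and -0.81 within cage 2. Sh2d1a and Cd40lg both lie on the X chromosome, where 6.09% of 394 genes tested had every library labelled cKO below every control, beside the 4.22% of all genes, and where the median log2 fold change was -0.022.

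Tcf7, a transcription factor upstream of Bcl6, was at 49.6, 59.6 and 29.4 CPM in the libraries labelled cKO, against 171, 56.2 and 36.1 CPM in the controls. Il6ra, the receptor for interleukin-6, was at 29.6, 28.9 and 27.0 CPM in the libraries labelled cKO, against 101, 36.8 and 21.1 CPM in the controls. In both genes control replicate 1 stood far above the other 5 libraries, and the groups overlapped. P2rx7, an ATP receptor that limits follicular helper cells in the gut, gave 0.39 in log2 (95% interval -0.15 to 0.94) (edgeR adjusted p = 1).

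Of 16 genes that oppose the programme or mark cells outside the follicle, all were tested, 13 above 0 and 3 below, with a median of 0.075. Without replicate 1 of the group labelled cKO 5 were above and 11 below (median -0.11), and without control replicate 3 it was 7 above and 9 below (median -0.011). Prdm1, which encodes Blimp-1, the repressor that Bcl6 and follicular fate are set against, was at 210, 141 and 140 CPM in the libraries labelled cKO, against 145, 135 and 116 CPM in the controls. Its log2 fold change was 0.31 with a 95% interval from -0.16 to 0.78 (edgeR adjusted p = 1). Il7r, the receptor subunit for interleukin-7, was at 475, 369 and 368 CPM in the libraries labelled cKO, against 335, 327 and 317 CPM in the controls. The groups did not overlap for Il7r, with every library labelled cKO above every control, as for 3.4% of all genes tested (log2 fold change 0.31, edgeR adjusted p = 1). Ccr7, the receptor that leads T cells to the T cell zone, and Stat5a, a signal carrier of interleukin-2, had log2 fold changes of -0.71 and 0.28, both with intervals across 0. Ccr7 was at 37.3, 43.5 and 35.1 CPM in the libraries labelled cKO, against 119, 54.1 and 16.1 CPM in the controls. Its cages ran in opposite directions, at -1.10 in log2 CPM in cage 1 and 1.27 in cage 2.

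Of 13 binding partners and relatives of the surface proteins 9 were tested, 4 above 0 and 5 below, with a median of -0.048. This median ran from -0.22, without replicate 1 of the group labelled cKO, to 0.13, without replicate 3 of that group, when each library was left out, and was above 0 without any one of 4 libraries (replicates 2 and 3 of the group labelled cKO and control replicates 1 and 2). It was also above 0 with cage as a term (0.27), on total counts (0.059) and without the low-count filter (0.15). Ly9, a SLAM receptor, was at 67.5, 56.4 and 61.6 CPM in the libraries labelled cKO, against 89.5, 102 and 57.3 CPM in the controls (log2 fold change -0.43, edgeR adjusted p = 1). Slamf1, another SLAM receptor that uses SAP, had a log2 fold change of 0.26, Slamf7 one of 0.37 and the interleukin-21 receptor Il21r one of 0.25, all with intervals across 0. Estimates of the SLAM receptors thus lay on both sides of 0. The last list held 11 genes, namely Tox3, Tox4, Lag3, Havcr2, Tigit, Ctla4, Entpd1, Nr4a1, Nr4a2, Nr4a3 and Nfatc2. Of these 10 were tested, 7 above 0 and 3 below, with a median of 0.058. Without replicate 1 of the group labelled cKO 2 were above and 8 below (median -0.11), and without control replicate 3 it was 4 above and 6 below (median -0.050). Havcr2, Lag3, Entpd1 and Tox4 had log2 fold changes of 0.28, 0.22, 0.15 and 0.090 (edgeR adjusted p = 1 for each).

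Since Ythdf2 binds methylated mRNA, the genes were searched for GGACT, a common form of the methylation consensus, on the transcript strand of the longest coding transcript of GENCODE M21. Sh2d1a and Cxcr5 had no match in that transcript, and the other 8 genes had from 1 to 8. For Sh2d1a that transcript has 1223 bases, beside 5505 bases in its union of exons, so the rest of its exon sequence was not searched. The density was highest in Izumo1r, at 3.10 per kilobase, and the median over 11389 tested genes with a coding transcript was 1.04 per kilobase. Within 150 bases on each side of the start of the stop codon, 2 of the 10 genes had a match, Tox and Il21. Il21 was not among the tested genes, so of the 8 tested members Tox alone had a match. Of all tested genes with a full window, 33.8% did. The matches nearest the stop codon are shown for Tox, Il21 and Izumo1r with GGACT in capitals, because these are the windowed genes and the gene richest in the motif. They lie at chr4:6688836-6688856 (minus strand, coding, exon 8 of 9) in Tox, at chr3:37225278-37225298 (minus strand, 3' UTR) in Il21 and at chr9:14900122-14900142 (minus strand, 3' UTR) in Izumo1r.
Tox: cagcccgtGGACTggagtacc
Il21: attcccgaGGACTgaggagac
Izumo1r: ctactataGGACTccggcgct
A match is a stretch of letters and does not show that a base is methylated or bound.

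The genes with the most similar pattern to the most abundant transcription factor and surface protein were looked for among 8193 others with a mean of at least 10 CPM, by the root mean square difference of centred log2 CPM over the 6 libraries. Adap1, Stambpl1 and Myo1g were nearest to Tox, at 0.069, 0.078 and 0.080, where the median over all genes was 0.48. Zrsr1, Rpl22l1 and Ptprcap were nearest to Izumo1r, at 0.14, 0.16 and 0.17, where the median was 0.63. In all 6 of these genes, as in Tox and Izumo1r, control replicate 3 was the lowest library. They were picked for likeness over these same libraries, so this is not a separate result.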

How the data were processed

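The authors deposited 1 table of raw read counts per gene for each of 6 libraries, not normalized. Per the labels' protocols, libraries were made with a SMARTer kit for stranded total RNA. The submitters' processing notes name Trimmomatic 0.39, HISAT2 2.1.0, HTSeq, DESeq2 and mm10. For annotation release and strand, the setting is not given in the sources used here. Symbols and coordinates came from GENCODE M21 (54409 of 54446 identifiers matched). Rows that name no gene were left out of all totals, among them reads outside genes, at 24.6% to 35.8% of records.

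Counts were filtered with filterByExpr (minimum count 10), normalized by TMM and fitted in edgeR 4.0.16 (R 4.3.3) by quasi-likelihood, with group as the single covariate over the 6 libraries. Benjamini-Hochberg adjustment ran over 13172 genes. The code was tested on simulated data. Log2 CPM values used a prior count of 2. Marker sums used total gene counts and exact two-sided permutation. Alternatives were DESeq2 1.42.0, limma-voom (limma 3.58.1), other scalings and filters, cage, the replicate number, and each library left out. Named genes were the 10 members, Ythdf2, Foxp3 and Cd4, up to 4 of each pathway list with the smallest p, and the 3 nearest patterns to 2 members; Kdr, Pax5, Zbtb46, Bcl9l and Tenm1 were added after their values were seen. The members and lists were chosen with earlier results of these data known. Libraries of a group differed by more than sampling noise in every pair (chi-square at least 17.4 per degree of freedom). Since reads are not independent molecules, intervals and floors cover counting error only.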

Additional observations from a re-analysis of the deposited data

Results flagged for a closer look

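For 3 genes the difference within cage 1 and that within cage 2 ran in opposite directions with no overlap between the libraries labelled cKO and the controls in either cage. The difference in log2 CPM was -0.11 in cage 1 and 0.81 in cage 2 for Tox, -1.74 and 1.01 for Tox2, and -0.55 and 0.54 for Izumo1r. The difference between the cages was not tested, since each cage holds a single library of 1 of the groups. Of all genes tested, 13.6% had the same pair of directions and 10.2% the opposite pair.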

How the results depend on the processing

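Without the low-count filter 33 genes were called, 0 of them among the follicular and TOX genes. With both control replicate 3 and replicate 1 of the group labelled cKO left out, chosen after seeing the data, 460 were called, 1 of them a member (Izumo1r, log2 fold change -1.10, edgeR adjusted p = 0.027), but the remaining controls were then all of cage 1 and the remaining libraries labelled cKO all of cage 2, so genotype and cage cannot be told apart. In the other settings 0 genes were called. The median of the 8 tested genes ran from -0.64 to -0.093 with each library left out. Of 135 values of single genes under alternatives, 123 kept their direction. Tox was at 0.030 with limma-voom, 0.034 on total counts, 0.34 after adding cage, 0.066 with the replicate block and 0.026 with library sizes from Cd3e, Cd4 and Foxp3 (added after seeing the data, as were the other scalings within cages), and Cd200 at 0.025 with cage as a term. With each library left out, the range was -0.53 to 0.028 for Bcl6, -2.36 to 0.11 for Cxcr5, -0.31 to 0.17 for Tox and -0.50 to 0.16 for Cd200. The causes were not tested. Scaling by total counts alone moved the median of all genes to 0.14. The median within cage 2 was 0.79 with total counts and log2(CPM + 1). Replicate numbers did not pair the libraries (correlations of deviations 0.41, -0.24 and 0.55). Over all pairs of a library labelled cKO and a control, these correlations went with the cage. They ran from 0.27 to 0.55 within a cage and from -0.56 to -0.18 between cages. The deviations were taken from each group's own mean, so these correlations depend on each other and are not separate results on the cage. With the replicate block 0 genes were called and Sh2d1a was at -1.33. Of the marker sums, the difference in the Treg markers (libraries labelled cKO minus controls) was 284 CPM on total counts, -119 CPM with TMM scaling and from -1357 to 1273 CPM with each library left out. In the melanoma markers it was 513 CPM on total counts, -35.1 CPM with TMM scaling and from -215 to 1563 CPM with each library left out. With each library left out it ran from -55.2 to 9.67 CPM for macrophage, -0.843 to 8.14 CPM for CD8 and NK, and -7.77 to 26.1 CPM for fibroblast markers. Il21 and Ascl2 had too few counts to be tested.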

Other observations

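Markers of dendritic cells, like those of B cells, did not overlap between the groups in their summed level. The sum of 6 markers was 47.8, 45.9 and 37.0 CPM of total gene counts in the libraries labelled cKO and 18.6, 31.2 and 13.7 CPM in the controls (exact two-sided permutation p = 0.1, the smallest possible, adjusted p = 0.40 over 8 lists). Of the 6 markers 3 were tested, among them Zbtb46, a transcription factor of dendritic cells, at 37.7, 26.4 and 22.6 CPM in the libraries labelled cKO and 12.5, 25.3 and 11.99 CPM in the controls. The groups overlapped for Zbtb46, and its log2 fold change was 0.79 (edgeR adjusted p = 1). Zbtb46 made up much of the sum. Its mean was 28.9 CPM in the libraries labelled cKO and 16.6 CPM in the controls with TMM scaling. The mean sums of the 6 markers were 43.6 and 21.2 CPM of total gene counts. In replicate 1 of the group labelled cKO, which had the highest sum, 4 of the 6 markers were at 0. The sums of macrophage, fibroblast, endothelial and CD8 and NK markers overlapped between the groups (exact permutation adjusted p = 0.93 for each).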
